A study of Mus musculus with 6 samples.

Results

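Messenger RNA of 9 genes that mark regulatory T cells or encode costimulatory receptors was measured in CT26 tumours, a mouse colon carcinoma line implanted subcutaneously in BALB/c hosts of wild-type genotype. The genes were listed by name, with earlier results of these data known. They are the transcription factors Foxp3 and Ikzf2, the interleukin-2 receptor chain Il2ra, the immunoglobulin family receptors Cd28 and Icos, and the tumour necrosis factor receptor family members Cd27, Tnfrsf4, Tnfrsf9 and Tnfrsf18. Each is 1 of 40303 gene models of the deposited table. The tumours of 3 mice given PEGylated glutaminase, an enzyme that breaks down glutamine in the circulation, injected into the peritoneum at 50 IU per kg, were compared with those of 3 mice given the carrier, PBS containing 10% glycerol (vehicle). Each mouse had 2 treatments, given every 3 days once tumours could be felt, and each tumour gave 1 library of whole tissue, with no sorting of cells. The PEG-glutaminase libraries held 16455052 to 16791267 reads counted to genes and the vehicle libraries 17380129 to 18051480. The members lie on chromosomes 1 (Cd28, Icos, Ikzf2), 2 (Il2ra), 4 (Tnfrsf4, Tnfrsf9, Tnfrsf18), 6 (Cd27) and X (Foxp3). Age and sex of the mice are not stated in the labels.

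Regulatory T cells are CD4 T cells that hold other T cells in check. Foxp3 sets their identity, Ikzf2, which encodes Helios, is another of their transcription factors, and Il2ra encodes CD25, the chain that gives the interleukin-2 receptor its high affinity. Costimulatory receptors give T cells the second signal beside the antigen receptor: CD28 and ICOS bind ligands of the B7 family on antigen-presenting cells, while CD27, OX40 (Tnfrsf4), 4-1BB (Tnfrsf9) and GITR (Tnfrsf18) bind ligands of the tumour necrosis factor family and signal through TRAF adaptors. In mouse tumours regulatory T cells carry many of these receptors at a high level, and activated conventional T cells and NK cells carry several of them too.

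The members did not share 1 difference. Icos stood lowest against vehicle, at a log2 difference of -1.64, and Cd28, Tnfrsf9, Cd27 and Il2ra stood between -1.24 and -0.95, whereas Tnfrsf4 stood at -0.55, Tnfrsf18 at -0.13 and Foxp3 at 0.30. Of the 9 members, 8 had a mean of at least 10 normalized counts and were tested; Ikzf2 lay below that limit. By limma, with Benjamini-Hochberg adjustment over 13557 genes, 0 of the 8 passed an adjusted p of 0.05, where 0.0369% of all tested genes passed. edgeR also called 0 members, with the same share of all genes, and 2, Icos and Il2ra, had an unadjusted limma p under 0.05, where 18.4% of all tested genes did, 9.51% as lower. DESeq2 called 1 of the 7 members to which it gave an adjusted p, Icos, which fell, where it called 4.18% of genes in either direction and 2.31% as lower. In whole tissue, fewer T cells and less RNA per T cell cannot be told apart. Of the 8 tested members 7 had a log2 difference below 0, with a median of -1.01, against 50% and a median of -4.97e-05 over all tested genes.

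The level of every member in each tumour is needed to read these differences, because single tumours moved several of them. PEG-glutaminase 2 was the lowest of the 6 tumours in 6 of the 9 members, and vehicle 3 was the highest in 4. The groups did not overlap in 2 of the 9, Icos and Tnfrsf4, both lower; 25.8% of all tested genes did not overlap, 12.7% as lower and 13.1% as higher. Without PEG-glutaminase 1 it was the same 2 genes (17.8% of all genes lower, 17.3% higher), and without PEG-glutaminase 2 the same 2 lower with Ikzf2 higher (16.5% and 16.7%). Without vehicle 1 it was 3 lower (19.2% of all genes, 19.7% higher) and without vehicle 2 again 3 lower (16.6%, with 17% higher). Without PEG-glutaminase 3 the count was 7 lower and 1, Foxp3, higher, where 19.3% of all genes were lower and 19.5% higher without overlap. Without vehicle 3 it was 4 lower and 1, again Foxp3, higher (18.4% and 18.8% of all genes). Without both vehicle 1 and PEG-glutaminase 2, a setting chosen after seeing the data, it was 3 lower and 1, Ikzf2, higher (24% and 24.3%).

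**Figure D1:**
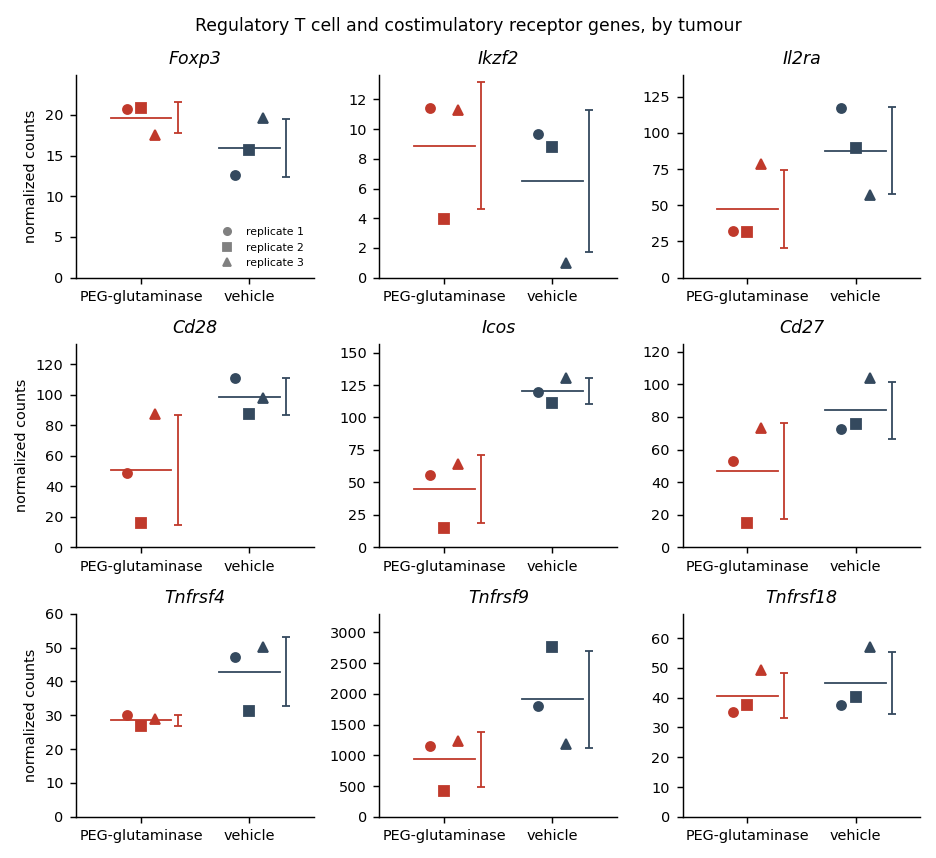
Normalized counts (vertical axes, each starting at 0) of the 9 members in PEG-glutaminase tumours (red, left) and vehicle tumours (dark, right); symbols give the replicate number, which does not pair tumours, horizontal lines give the mean and error bars the SD of 3 tumours. Icos lies at 14.8 to 63.8 in PEG-glutaminase tumours, below 111 to 130.5 in vehicle tumours, whereas the Foxp3 values of the groups overlap.

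Foxp3 transcripts were few in both groups, and no difference between the groups passed the threshold. Foxp3 (ENSMUSG00000039521) had 20.7, 20.8 and 17.5 normalized counts in PEG-glutaminase 1, 2 and 3, against 12.6, 15.7 and 19.6 in vehicle 1, 2 and 3. The groups overlapped, since vehicle 3 lay above PEG-glutaminase 3. The means were 19.7 ± 1.88 in PEG-glutaminase tumours and 16.0 ± 3.54 in vehicle tumours (SD, n = 3 each), from 58 and 49 reads in all, with exact 95% Poisson intervals of 44.0 to 75.0 and 36.3 to 64.8 that cover counting error only. The log2 difference was 0.30 ± 0.33 (SE; limma adjusted p = 0.640), with a 95% interval of -0.43 to 1.03 that holds values on both sides of 0. Leaving out 1 tumour in turn gave 0.15 to 0.45, the lowest without vehicle 1.

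In GENCODE M21, Foxp3 overlaps Flicr on the same strand and Ppp1r3f over 640 bases on the other strand. Flicr had 9.32, 7.92 and 8.23 normalized counts in PEG-glutaminase tumours and 7.73, 11.8 and 6.87 in vehicle tumours. Ppp1r3f had 26.9, 21.8 and 15.4 in PEG-glutaminase tumours and 20.3, 23.5 and 25.5 in vehicle tumours. How reads shared by overlapping genes were assigned, and whether strand was used, is not stated in the labels, so the Foxp3 count is uncertain to that extent.

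Ikzf2 (ENSMUSG00000025997) was near the detection limit, with 11.4, 3.96 and 11.3 normalized counts in PEG-glutaminase tumours and 9.66, 8.83 and 0.981 in vehicle tumours. The last value is a single read, and both groups held 1 tumour well below the other 2. With no filter on low genes the log2 difference was 0.62 (limma adjusted p = 0.725).

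Foxp3 is the tested member whose log2 difference lay above 0, unlike those of the T cell genes, and the first of its 2 promoter windows is shown from RefSeq, 250 bases before to 50 after the start site, on GRCm38.p6 at chrX:7579426-7579725, plus strand. Capitals mark GGAAA or its complement TTTCC, the core letters that NFAT, a factor switched on by T cell receptor signals, binds.
Foxp3: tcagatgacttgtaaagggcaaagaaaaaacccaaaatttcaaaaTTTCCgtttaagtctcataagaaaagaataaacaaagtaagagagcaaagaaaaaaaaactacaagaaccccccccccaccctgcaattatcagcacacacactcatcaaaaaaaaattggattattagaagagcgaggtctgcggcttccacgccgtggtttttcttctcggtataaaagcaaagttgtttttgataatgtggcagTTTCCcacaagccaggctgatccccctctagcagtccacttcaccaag
This window holds the core at 2 places. The match is not particular, since 61.3% of the 32851 promoter windows of the table hold it on either strand.

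Il2ra (ENSMUSG00000026770) stood lower in PEG-glutaminase tumours by value, at 32.1, 31.7 and 78.2 normalized counts, against 117, 89.3 and 56.9 in vehicle tumours. PEG-glutaminase 3 and vehicle 3 crossed, so the groups overlapped. The means were 47.3 ± 26.7 in PEG-glutaminase tumours and 87.7 ± 30.0 in vehicle tumours (SD, n = 3 each), and the log2 difference was -0.95 ± 0.40 (SE; limma adjusted p = 0.254; 95% interval -1.86 to -0.04). Leaving out 1 tumour gave -1.37 to -0.71. The RefSeq promoter window of Il2ra, another regulatory T cell marker, lies on GRCm38.p6 at chr2:11642542-11642841, plus strand. It holds the core, in capitals, at 1 place.
Il2ra: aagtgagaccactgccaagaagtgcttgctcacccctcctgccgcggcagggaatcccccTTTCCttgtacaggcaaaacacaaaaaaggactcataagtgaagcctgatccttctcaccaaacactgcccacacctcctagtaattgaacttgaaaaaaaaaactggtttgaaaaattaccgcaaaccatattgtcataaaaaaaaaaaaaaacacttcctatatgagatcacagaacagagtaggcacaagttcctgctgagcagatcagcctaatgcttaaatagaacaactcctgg

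The other chains of the receptor, Il2rb and Il2rg, had far more normalized counts than Il2ra and are shared with other cells. Il2rb, the beta chain that NK and CD8 T cells carry, had 645, 183 and 1171 normalized counts in PEG-glutaminase tumours, against 924, 1088 and 1118 in vehicle tumours, with overlapping groups and a log2 difference of -1.01 ± 0.73 (SE; limma adjusted p = 0.506). Il2rg, the common gamma chain of several cytokine receptors, averaged 714 ± 103 in PEG-glutaminase tumours and 778 ± 95.3 in vehicle tumours (SD, n = 3 each; log2 difference -0.13 ± 0.13, SE). Il15ra, a chain of the interleukin-15 receptor that presents interleukin-15, averaged 138 ± 17.3 in PEG-glutaminase tumours and 169 ± 49.9 in vehicle tumours. Il2 itself had 1, 0 and 0 reads in PEG-glutaminase tumours and 2, 0 and 1 in vehicle tumours, too few for a fold.

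Among the receptors for B7 ligands, Icos (ENSMUSG00000026009) was the member with the largest log2 difference. It had 55.9, 14.8 and 63.8 normalized counts in PEG-glutaminase tumours, against 119.8, 111 and 130.5 in vehicle tumours. Every PEG-glutaminase tumour lay below every vehicle tumour, PEG-glutaminase 2 by most. The means were 44.9 ± 26.3 in PEG-glutaminase tumours and 120.4 ± 9.83 in vehicle tumours (SD, n = 3 each), and the log2 difference was -1.64 ± 0.53 (SE; limma adjusted p = 0.198; 95% interval -2.91 to -0.37). The adjusted p was 0.180 by edgeR and 0.0140 by DESeq2, whose log2 difference was -1.43. Without PEG-glutaminase 2 the log2 difference was -0.996 (limma adjusted p = 0.0781), and leaving out 1 tumour gave -2.01 to -0.996 in all.

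Cd28 (ENSMUSG00000026012), the receptor for Cd80 and Cd86 that naive T cells already carry, had 48.7, 15.8 and 87.4 normalized counts in PEG-glutaminase tumours, against 111, 87.3 and 98.1 in vehicle tumours. PEG-glutaminase 3 reached the lowest vehicle tumour, so the groups met. The means were 50.7 ± 35.8 and 98.8 ± 11.9 for PEG-glutaminase and vehicle tumours (SD, n = 3 each), with a log2 difference of -1.24 ± 0.58 (SE; limma adjusted p = 0.313; 95% interval -2.65 to 0.17), and of -0.58 without PEG-glutaminase 2. Cd28, Ctla4 and Icos lie next to each other on chromosome 1 of the mouse reference, with 0 other protein-coding genes between neighbours. Ctla4, the inhibitory receptor for the same ligands as Cd28 and a Foxp3 target in regulatory T cells, had 27.97, 10.9 and 44.2 in PEG-glutaminase tumours, against 111, 85.3 and 56.9 in vehicle tumours. Its groups did not overlap and, by DESeq2, it fell; its log2 difference was -1.72 ± 0.49 (SE; limma adjusted p = 0.155; DESeq2 adjusted p = 0.0139).

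The 4 tumour necrosis factor receptors had unlike log2 differences by value, with 95% intervals that overlapped. Cd27 (ENSMUSG00000030336), carried by naive and memory T cells and by NK cells, had 52.8, 14.8 and 73.0 normalized counts in PEG-glutaminase tumours, against 72.4, 75.5 and 104 in vehicle tumours. Only PEG-glutaminase 2 lay far below the rest, and PEG-glutaminase 3 lay above vehicle 1. The log2 difference was -1.07 ± 0.57 (SE; limma adjusted p = 0.352; 95% interval -2.43 to 0.28), and -0.41 without PEG-glutaminase 2. Cd27 overlaps Vamp1 on the other strand over 4389 bases in GENCODE M21, and Vamp1 had 77.2 to 99.8 in PEG-glutaminase tumours and 73.6 to 118 in vehicle tumours.

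Tnfrsf9 (ENSMUSG00000028965), induced on activated T and NK cells and also found on some myeloid and endothelial cells, had the highest normalized counts of the members; it overlaps Camta1 on the other strand over 28781 bases. It had 1144, 424 and 1238 normalized counts in PEG-glutaminase tumours, against 1799, 2756 and 1183 in vehicle tumours. PEG-glutaminase 3 lay above vehicle 3, so the groups overlapped, and vehicle 2 was the highest. The means were 935 ± 445 in PEG-glutaminase tumours and 1912 ± 792 in vehicle tumours (SD, n = 3 each), with a log2 difference of -1.10 ± 0.56 (SE; limma adjusted p = 0.364; 95% interval -2.56 to 0.37). Without PEG-glutaminase 2 it was -0.60 and without vehicle 2 it was -0.79.

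Tnfrsf4 (ENSMUSG00000029075) and Tnfrsf18 (ENSMUSG00000041954) lie side by side on chromosome 4, in the same orientation and with 0 protein-coding genes between them, and both are high on mouse regulatory T cells. Tnfrsf4 had 30.0, 26.7 and 28.8 normalized counts in PEG-glutaminase tumours, against 47.3, 31.4 and 50.0 in vehicle tumours. The groups did not overlap, though vehicle 2 came close to PEG-glutaminase 1, and the log2 difference was -0.55 ± 0.27 (SE; limma adjusted p = 0.303; 95% interval -1.14 to 0.05). Tnfrsf18 had 35.2, 37.6 and 49.4 in PEG-glutaminase tumours, against 37.7, 40.2 and 56.9 in vehicle tumours, with overlapping groups, and its log2 difference was -0.13 ± 0.26 (SE; limma adjusted p = 0.818; 95% interval -0.71 to 0.45). Without vehicle 3 that of Tnfrsf18 was 0.0490. In these 2 genes PEG-glutaminase 2 did not stand far below the other PEG-glutaminase tumours, unlike in Cd28, Icos, Cd27 and Tnfrsf9.

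The RefSeq promoter windows of these neighbours, 1 with separated and 1 with overlapping groups, are shown on GRCm38.p6, at chr4:156013445-156013744 for Tnfrsf4 and chr4:156026072-156026371 for Tnfrsf18, both plus strand and with the NFAT core in capitals. The core occurs once in the Tnfrsf4 window and at 2 places in the Tnfrsf18 window.
Tnfrsf4: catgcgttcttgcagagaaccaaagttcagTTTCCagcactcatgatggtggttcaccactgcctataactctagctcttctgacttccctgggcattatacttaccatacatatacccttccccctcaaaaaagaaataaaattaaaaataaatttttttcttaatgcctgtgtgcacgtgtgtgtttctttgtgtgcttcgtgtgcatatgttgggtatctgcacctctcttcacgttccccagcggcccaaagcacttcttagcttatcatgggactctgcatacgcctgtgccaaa
Tnfrsf18: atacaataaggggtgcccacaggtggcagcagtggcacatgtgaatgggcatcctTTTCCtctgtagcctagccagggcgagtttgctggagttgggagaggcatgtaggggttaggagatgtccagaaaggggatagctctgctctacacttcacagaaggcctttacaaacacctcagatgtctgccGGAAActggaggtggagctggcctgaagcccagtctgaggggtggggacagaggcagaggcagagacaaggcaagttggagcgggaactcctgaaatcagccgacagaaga
RefSeq windows were matched for 6 of the 9 members, 8 windows in all, and the core is in 8 of the 8. TGTGGT, the core of Runx factors, is in 1 of the 8 against 16.8% of all windows. TGANTCA, bound by AP-1, is in 1 against 7.81%, and TTCNNNGAA, bound by STAT factors, is in 3 against 8.30%, each searched on both strands. Icos, Cd28 and Ikzf2 had no match in the table.

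**Figure D2:**
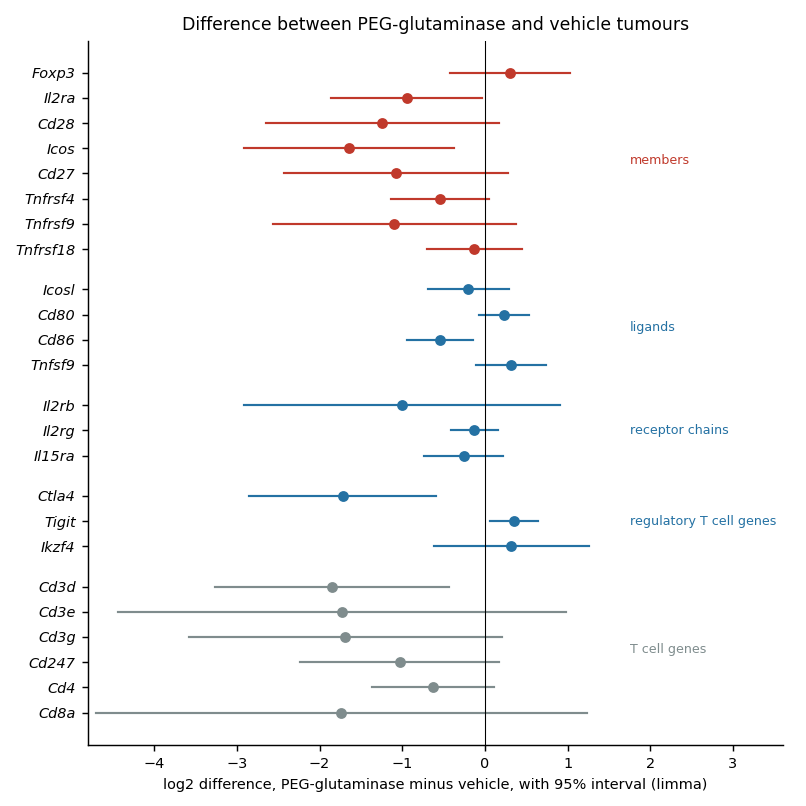
Log2 differences (horizontal axis, PEG-glutaminase minus vehicle, on the log2(value + 1) scale) with 95% limma intervals for the 8 tested members (red), tested ligands, receptor chains and regulatory T cell genes (blue) and T cell genes (grey). Icos at -1.64 and Ctla4 at -1.72 have intervals below 0, while those of Foxp3 and Tnfrsf18 span 0.

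**Figure D3:**
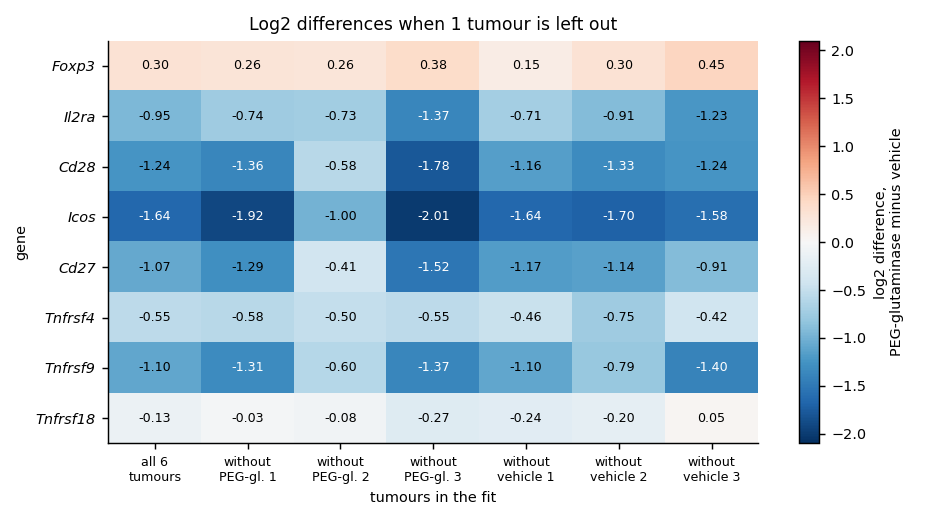
Log2 differences (colour and printed value) of the 8 tested members (rows) with all 6 tumours and with each tumour left out (columns). Without PEG-glutaminase 2 the values of Cd28, Icos, Cd27 and Tnfrsf9 lie nearer to 0, at -0.58, -0.996, -0.41 and -0.60, while Foxp3 stays between 0.15 and 0.45 throughout.

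The ligands showed no common direction. Of 8 listed genes, the ligands and Il2, 4 were tested, with 2 higher, 2 lower and a median log2 difference of 0.01, and 0 passed by limma, edgeR or DESeq2 (1 unadjusted by limma). Cd86, a B7 ligand of CD28 on dendritic cells and macrophages, had 177, 117 and 166 normalized counts in PEG-glutaminase tumours, against 196, 221 and 245 in vehicle tumours, and the groups did not overlap. Its log2 difference was -0.54 ± 0.18 (SE; limma adjusted p = 0.175). Cd80, the other CD28 ligand, averaged 213 ± 9.29 in PEG-glutaminase tumours and 183 ± 23.4 in vehicle tumours (SD, n = 3 each), at 0.23 ± 0.14 on the log2 scale (SE; limma adjusted p = 0.385). Icosl, the ligand of ICOS, averaged 122 ± 11.8 in PEG-glutaminase tumours and 145 ± 48.4 in vehicle tumours, at -0.20 ± 0.22 (SE).

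Tnfsf9, the ligand of 4-1BB, had 431, 315 and 261 normalized counts in PEG-glutaminase tumours, against 225, 306 and 266 in vehicle tumours, at 0.32 ± 0.19 on the log2 scale (SE; limma adjusted p = 0.385), with overlapping groups. Tnfsf4, the OX40 ligand, was below the limit for testing, at 5.18, 5.94 and 6.17 in PEG-glutaminase tumours, against 13.5, 17.7 and 8.83 in vehicle tumours, without overlap. Tnfsf18, the GITR ligand, lay between 1.98 and 5.18 in PEG-glutaminase tumours and between 1.96 and 5.80 in vehicle tumours. Cd70, the ligand of CD27, had at most 1 read in any tumour.

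Other genes listed for regulatory T cells were mixed in whole tissue. Of 16 tested of 20 listed, 12 were lower and 4 higher, with a median of -0.22. By limma or edgeR 0 passed (4 unadjusted by limma), and by DESeq2 1, Ctla4. Several were far more abundant than T cell genes. Capg, Il1rl1, Nrp1 and Tigit averaged 7545, 4185, 1529 and 343 normalized counts over both groups, against 17.8 for Foxp3 and 146 for Cd3e. Which cells these transcripts came from was not tested, so the median cannot be read as one of regulatory T cells. Ccr8, a chemokine receptor of tumour regulatory T cells, was below the limit for testing, at 3.11, 2.97 and 5.14 normalized counts in PEG-glutaminase tumours, against 13.5, 8.83 and 13.7 in vehicle tumours, without overlap. Tigit, an inhibitory receptor, had 432, 323 and 404 in PEG-glutaminase tumours, against 281, 300.2 and 319 in vehicle tumours, also without overlap (log2 difference 0.35 ± 0.13, SE; limma adjusted p = 0.205). Ikzf4, which encodes the Foxp3 partner Eos, averaged 16.7 ± 7.42 in PEG-glutaminase tumours and 12.4 ± 1.59 in vehicle tumours. Itgae, the integrin CD103, and Entpd1, the ectoenzyme CD39, stood at -0.69 ± 0.24 and -0.37 ± 0.15 (SE; limma adjusted p of 0.185 and 0.242).

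Genes that act with Foxp3 or below the receptors stood near the median of all genes. Of 19 Foxp3 regulators and cofactors 10 were lower and 9 higher, with a median of -0.03; limma and edgeR called 0 (4 unadjusted by limma) and DESeq2 called Uhrf1 (adjusted p = 0.0370), which rose. Uhrf1 and Dnmt1, which keep DNA methylation through replication in dividing cells of any kind, stood at 0.30 ± 0.08 and 0.40 ± 0.13, and Nr4a3, induced by T cell receptor signals, at -0.74 ± 0.24 (SE; limma adjusted p of 0.136, 0.165 and 0.171). Of 15 CD28 and ICOS signalling genes 13 were lower, with a median of -0.18, and 0 passed by limma, edgeR or DESeq2 (1 unadjusted by limma). Grap2, an adaptor that T cell receptor and CD28 signals use, stood at -0.89 ± 0.42 with overlap (SE; limma adjusted p = 0.294), with 17.8 to 63.8 normalized counts in PEG-glutaminase tumours and 49.05 to 73.6 in vehicle tumours.

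Of 13 tested TNF receptor signalling genes 10 were lower, with a median of -0.12, and 0 passed by the 3 tools (1 unadjusted by limma). Traf1, an adaptor of 4-1BB, averaged 407 ± 134 in PEG-glutaminase tumours and 513 ± 99.1 in vehicle tumours, and Traf3, an inhibitor of the alternative NF-kappaB pathway, 1207 ± 50.0 and 1004 ± 78.4 (SD, n = 3 each; log2 difference 0.27 ± 0.09, SE; limma adjusted p = 0.170). Of 7 feedback genes of the interleukin-2 receptor and STAT5 pathway 5 were lower, with a median of -0.22, and 0 passed by the 3 tools (3 unadjusted by limma). Socs3 and Socs1, inhibitors of cytokine receptors in many cells, stood at -0.40 ± 0.12 and -0.37 ± 0.13 without overlap (SE; limma adjusted p of 0.155 and 0.181), and Cish, a STAT5 target, at -0.45 ± 0.26 with overlap. Of 7 tested other costimulatory receptors of 10 listed, 7 were lower, with a median of -0.42, and 0 passed by the 3 tools (2 unadjusted by limma). Cd40 stood at -0.76 ± 0.23 and Tnfrsf1b at -0.43 ± 0.13 (SE; limma adjusted p of 0.153 and 0.163), both without overlap. Tnfrsf25, chosen after its values were seen, went the other way below the limit for testing, at 12.4, 14.8 and 6.17 in PEG-glutaminase tumours, against 5.80, 4.90 and 3.92 in vehicle tumours.

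T cell transcripts themselves were lower by value in PEG-glutaminase tumours. The 10 listed T cell markers summed to 244 to 1058 normalized counts in PEG-glutaminase tumours and to 1096 to 1579 in vehicle tumours; 10 of the 10 had a log2 difference below 0, with 5 not overlapping, a median of -1.14, 0 limma calls and 1 DESeq2 call, Cd3d. Cd3e had 111, 11.9 and 148 in PEG-glutaminase tumours, against 191, 162 and 249 in vehicle tumours, and PEG-glutaminase 2 was again the lowest. Cd4, which macrophages and dendritic cells can also carry, did not follow that order, at 25.9, 49.5 and 30.9 in PEG-glutaminase tumours and 59.9, 35.3 and 71.6 in vehicle tumours, and Cd8a, of cytotoxic T cells, had 187, 16.8 and 260.3 in PEG-glutaminase tumours and 273, 297 and 395 in vehicle tumours.

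Each member was therefore set against the mean of log2(value + 1) of the 4 receptor complex genes Cd3d, Cd3e, Cd3g and Cd247 of the same tumour. That mean was 5.34 ± 1.36 in PEG-glutaminase tumours and 6.91 ± 0.25 in vehicle tumours (SD, n = 3 each), a difference of -1.57. Icos then differed by -0.07, Cd28 by 0.33 and Il2ra by 0.63, with overlapping groups (exact two-sided permutation p of 0.9, 0.3 and 0.5). Foxp3 differed by 1.88, with -1.30, 0.62 and -2.24 in PEG-glutaminase tumours against -3.00, -2.72 and -2.83 in vehicle tumours, and Tnfrsf18 by 1.44, both without overlap (exact permutation p = 0.1, the smallest that 3 against 3 allows). Tnfrsf4 differed by 1.03 and Tnfrsf9 by 0.48 with overlap, and Cd27 by 0.50 and Ikzf2 by 2.20 without.

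Because the Cd3 mean itself was lower, 77.6% of all tested genes were higher without overlap on this scale, against 4 of the 9 members. A gene with the same level in both groups differs by 1.57 here, so the values of Foxp3 and Tnfrsf18 lie near those of genes at large. Those of Icos, Cd28, Cd27 and Tnfrsf9 lie nearer to those of the Cd3 genes, though Cd27 separated the groups. Those of Il2ra and Tnfrsf4 lie between. Without PEG-glutaminase 2 a gene of equal level differs by 0.82 on this scale, and Foxp3 differed by 1.08 and Tnfrsf18 by 0.74. Icos then differed by -0.18, Cd28 by 0.23, Tnfrsf9 by 0.22, Cd27 by 0.41, Il2ra by 0.08 and Tnfrsf4 by 0.32. Il2ra then lay near the Cd3 genes and Cd27 between, so this sorting depended on PEG-glutaminase 2. Set against Cd4 alone, where a gene of equal level differs by 0.63, Foxp3 differed by 0.93 and Icos by -1.01, and 0 members separated the groups. The share of all genes on the Cd4 scale was not computed.

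**Figure D4:**
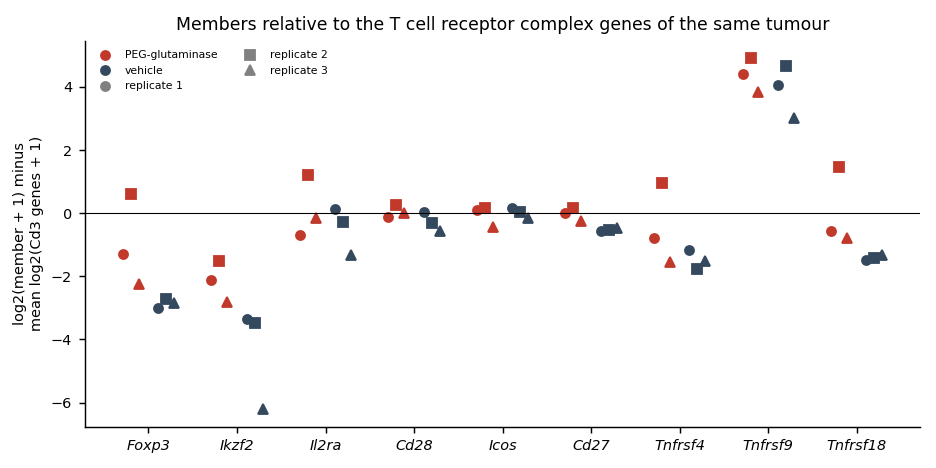
Log2(member + 1) minus the mean log2(value + 1) of Cd3d, Cd3e, Cd3g and Cd247 in the same tumour (vertical axis), for the 9 members in PEG-glutaminase tumours (red, left of each pair) and vehicle tumours (dark, right); symbols give the replicate number. Foxp3 in PEG-glutaminase tumours runs from -2.24 to 0.62, above -3.00 to -2.72 in vehicle tumours, whereas the Icos groups overlap around 0.

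Levels can be compared between genes only per length of transcript. Per kilobase of the longest GENCODE M21 transcript, Tnfrsf9 had 442 ± 211 normalized counts in PEG-glutaminase tumours and 904 ± 375 in vehicle tumours (SD, n = 3 each), above every T cell gene measured with it: Cd8a, the next, had 49.5 ± 39.9 in PEG-glutaminase tumours and 102.9 ± 20.7 in vehicle tumours, and the ranges did not overlap in either group. In PEG-glutaminase tumours the order after Tnfrsf9 was Tnfrsf18 (34.3 ± 6.38), Cd27 (30.1 ± 19.0), Tnfrsf4 (26.2 ± 1.53), Icos (13.8 ± 8.11), Cd28 (11.7 ± 8.25) and Il2ra (10.7 ± 6.06 per kb). In vehicle tumours it was Cd27 (53.9 ± 11.2), Tnfrsf4 (39.4 ± 9.24), Tnfrsf18 (37.8 ± 8.78), Icos (37.1 ± 3.03), Cd28 (22.7 ± 2.74) and Il2ra (19.9 ± 6.80 per kb). Foxp3 came next in both, at 5.13 ± 0.49 per kb in PEG-glutaminase tumours and 4.16 ± 0.92 in vehicle tumours, and Ikzf2 last, at 0.96 ± 0.46 and 0.70 ± 0.52. Between neighbours of these orders, leaving out the T cell genes, the ranges of Tnfrsf9, Foxp3 and Ikzf2 stood clear of the next in both groups. So did Tnfrsf4 above Icos in PEG-glutaminase tumours, and Cd27 above Tnfrsf4 and Icos above Cd28 in vehicle tumours. The other neighbours overlapped.

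**Figure D5:**
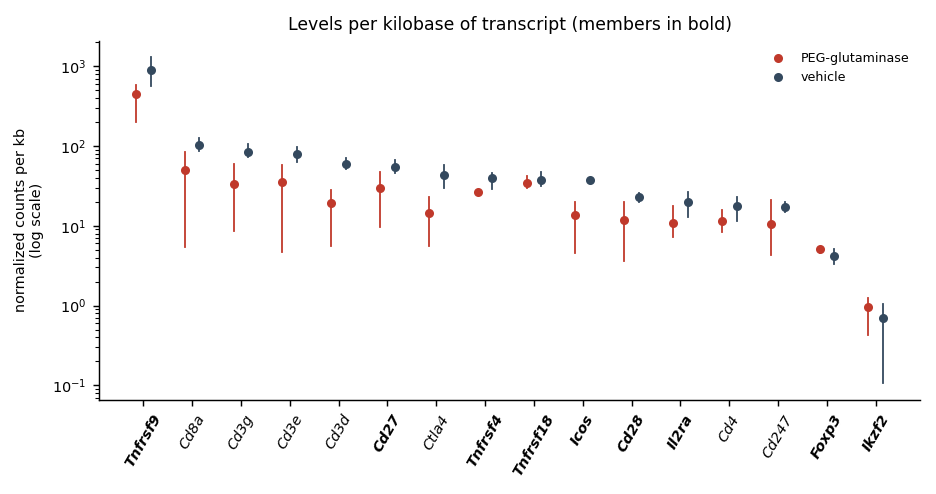
Normalized counts per kilobase (vertical log axis) of the 9 members (bold) and 7 T cell genes, with the mean as a point and the range of 3 tumours as a line, for PEG-glutaminase (red, left) and vehicle (dark, right). Tnfrsf9, at 442 and 904 per kb, lies above all others, and Foxp3 and Ikzf2 lie lowest.

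Likeness between profiles was measured as the root mean square distance of log2(value + 1), centred on each gene's mean over the 6 tumours. Among members Cd28 and Cd27 were closest, at 0.24, then Cd28 and Icos at 0.29, and Icos and Ikzf2 were farthest apart, at 1.43. The 5 genes of all tested nearest to Foxp3 were Nxn (0.05), Pdia5 (0.06), Alox5ap (0.06), Bcar3 (0.07) and Mmachc (0.07). Each was far more abundant than Foxp3, the lowest value of any being 144.9 normalized counts, of Mmachc in vehicle 1. The nearest gene was Dio2 for Cd27 (0.09), Cd180 for Tnfrsf4 (0.07), Lrrc61 for Tnfrsf18 (0.07), Amy1 for Il2ra (0.13), Sytl2 for Cd28 (0.15), Ankrd37 for Tnfrsf9 (0.17), A430093F15Rik for Icos (0.17) and Actg2 for Ikzf2 (0.33).

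Markers of other cells differed by value between the groups too, and their part in these results was not tested. NK markers summed to 163 to 474 normalized counts in PEG-glutaminase tumours and 459.8 to 609 in vehicle tumours (3 of 3 tested lower, Klra8 at no more than 1 read). Klrk1 was the largest part of the sum in every tumour. Ncr1 had 48.7, 56.4 and 113 in PEG-glutaminase tumours, against 94.7, 97.1 and 97.1 in vehicle tumours, with overlapping groups. Mast cell markers summed to 853 to 1358 in PEG-glutaminase tumours and 1366 to 2144 in vehicle tumours (5 of 5 lower). DESeq2 called 2 of these mast cell markers, as lower. Dendritic cell markers were lower in 5 of 7, with overlapping sums of 6124 to 7799 in PEG-glutaminase tumours and 6143 to 6590 in vehicle tumours, most of which was Fscn1. Itgax, the integrin CD11c, had 147, 101 and 172 in PEG-glutaminase tumours, against 335, 309 and 253 in vehicle tumours, and fell by DESeq2 (log2 difference -1.11 by limma, DESeq2 adjusted p = 0.000221). Xcr1, a chemokine receptor of cross-presenting dendritic cells, fell by DESeq2 too, with 33.1 to 39.6 in PEG-glutaminase tumours and 61.8 to 82.4 in vehicle tumours (log2 difference -0.96 by limma, DESeq2 adjusted p = 0.0471). limma called neither (adjusted p of 0.111 and 0.114). Macrophage markers were higher in 4 of 5, with sums of 18492 to 23088 in PEG-glutaminase tumours and 15284 to 21597 in vehicle tumours; DESeq2 called Mrc1, the mannose receptor, as higher (adjusted p = 0.00251). Keratinocyte markers summed to 5.94 to 21.6 in PEG-glutaminase tumours and 28.4 to 2987 in vehicle tumours, the highest in vehicle 1. Skeletal muscle markers were highest in PEG-glutaminase 2, at 1312, with 40.1 and 125 in the other PEG-glutaminase tumours and 172 to 892 in vehicle tumours. Endothelial markers were higher in 5 of 5, with 2648 to 3525 in PEG-glutaminase tumours and 2550.5 to 2619.5 in vehicle tumours, and DESeq2 called 1 of them, as higher. B cell markers summed to 27.8 to 35.6 in PEG-glutaminase tumours and 14.7 to 58.9 in vehicle tumours.

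The authors' deposited table holds its own comparison, and its values for the members differ from those of the library columns. In the authors' deposited table the log2 fold change was -0.75 for Icos, -0.49 for Cd28, -0.31 for Cd27, -0.70 for Tnfrsf9, -0.41 for Il2ra, -0.30 for Tnfrsf4, 0.16 for Tnfrsf18, 0.28 for Ikzf2 and 0.54 for Foxp3. Of the 5 members with an adjusted p in the authors' deposited table, 0 passed, and the lowest was 0.437, of Tnfrsf9. The mean signal of the authors' deposited table was 84.3% to 103% of the mean of the 6 library columns for these genes, so the libraries behind that comparison may not be the same 6; the labels do not say which they were.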

How the data were processed

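RNA sequencing of 6 tumours was analysed, 3 per group, grouped by the sample titles. Per the labels' protocols, libraries were made from poly-T-selected RNA with random priming. The deposited table holds, per the file headers and its values, a signal per BALB/cJ gene model: its reads scaled by a size factor of the library, called normalized counts. Per the submitters' processing notes, FastQC, STAR, featureCounts, DESeq2 and DESeq were used, with no versions or order. For the build and strandedness: not given in the sources used here. It also holds the authors' log2 fold changes with errors, Wald scores, p-values and adjusted p-values.

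Of 40396 rows, 93 repeated a gene model and were left out. Dividing a library by its smallest non-zero value gave whole numbers within 0.01 for 100% of non-zero values, so reads were recovered; they totalled 16455052 to 16791267 in PEG-glutaminase and 17380129 to 18051480 in vehicle libraries. For PEG-glutaminase 2 this rests on the values alone, as its step lies near 1. limma 3.58.1 in R 4.3.3 (mean trend, robust, two-sided) was run on log2(value + 1) over 13557 genes with a mean of at least 10. The added 1 shrinks changes of low genes, but the limma differences were not all smaller than those of DESeq2. By DESeq2 Icos, Cd28, Cd27, Il2ra and Tnfrsf9 stood at -1.43, -0.97, -0.84, -0.89 and -1.03, less far down than by limma. Tnfrsf4 and Tnfrsf18 stood slightly further down, at -0.59 and -0.14. The threshold was an adjusted p of 0.05. The test was tried on simulated data. edgeR 4.0.16 and DESeq2 1.42.0 on recovered reads, limma-voom, TMM scaling, pseudocounts of 0.5 and 5, other filters, a replicate block and each library left out were alternatives. The members and gene lists were chosen with earlier results of these data known. Named were all members, their ligands and receptor chains, Cd3 genes, Cd4, Cd8a, Ctla4, Tigit, Ikzf4, Ccr8, Traf1, up to 4 genes of smallest p per other list, and the nearest profiles; 1 gene so chosen is not reported here. Each tumour came from a separate mouse, so p-values measure the spread between mice. The labels give no batch.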

Additional observations from a re-analysis of the deposited data

How the results depend on the processing

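Over all genes limma called 5, and 136 with no filter on low genes, 500 by DESeq2, 1 with the replicate number as a block and 0 to 26 when 1 tumour was left out (0 when PEG-glutaminase 1, vehicle 1 or vehicle 2 was left out, 20 for PEG-glutaminase 2, 26 for PEG-glutaminase 3). Members called were 0 under each of these except DESeq2, which called 1. Of the ligand, receptor chain, regulatory T cell and signalling lists limma called 0 genes and DESeq2 called 2, Ctla4 and Uhrf1. The numbers do not pair the tumours: same-numbered tumours deviated from their group means with correlations of -0.129, -0.214 and -0.220, and with the replicate block 0 members passed. Members without overlap between groups were 2 with all tumours, where 25.8% of all tested genes did not overlap. They were 2 to 8 when 1 tumour was left out, where 16.5% to 19.3% of all genes were lower and 16.7% to 19.7% higher. Without vehicle 1 and PEG-glutaminase 2 together they were 4, where 24% of all genes were lower and 24.3% higher. The log2 difference of Tnfrsf18 ran from -0.27 to 0.0490 with 1 tumour left out, above 0 without vehicle 3; those of the other 7 tested members kept their sign in every setting run. Relative to the Cd3 genes 4 members separated the groups, where 77.6% of all tested genes were higher without overlap. Relative to Cd4 alone 0 members did, and the share of all genes was not computed. Relative to Cd4 the differences of Il2ra, Cd28, Cd27 and Tnfrsf9 turned to -0.32, -0.61, -0.44 and -0.46, and that of Cd28 was -0.0139 against 10 T cell genes. That of Icos was 0.0878 against Cd3e alone and ran from -0.18 to 0.12 with 1 tumour left out, being 0.12 without PEG-glutaminase 3 and 0.00603 without vehicle 1. The causes were not tested. Depth limits Foxp3 and Ikzf2 most, at 58 and 26 reads over the PEG-glutaminase tumours and 49 and 20 over the vehicle tumours.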
